A study of Homo sapiens with 6 samples.

Results

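The locus of TSPAN13, AGR2 and AGR3 on human chromosome 7 was followed through ATAC-seq peak lists of 22Rv1 cells as 90 regions of open chromatin, out of 167726 regions in all. Its members were all peaks that overlapped 7:16000000-17000000 (hg19), with overlapping peaks of the 6 lists merged into 1 region. The window itself was selected on the presence and strength of peaks in these same 6 lists, so that values within it are descriptions and none was tested. ATAC-seq cuts accessible DNA with a transposase, and a peak is a stretch where the inserted ends pile up above the local background.

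22Rv1 is an established prostate cancer cell line, and its libraries were labelled FOXA1_dTAG at 0, 1 and 24 h, with 2 libraries at each of the 3 times. The dTAG system fuses a degradation tag to a protein, which a small molecule then sends to the proteasome. By their labels all 3 groups, the 0 h group included, carried the FOXA1 tag, and no untagged parental group was analysed here. The degrader and its dose are not named in the labels, which also do not say whether the tagged line was 1 clone. They give no measure of the FOXA1 protein, and nothing in them says that replicates came from separate cultures.

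FOXA1 is a forkhead pioneer factor of luminal prostate and breast cells that binds nucleosomal DNA at enhancers and works with the androgen receptor. AGR2 and AGR3 are neighbouring genes for endoplasmic reticulum proteins of the protein disulfide isomerase family. AGR2 helps fold secreted mucins and is abundant in many adenocarcinomas, prostate included. TSPAN13 encodes a tetraspanin, a membrane protein of the family that organises signalling and adhesion partners at the cell surface. In the RefSeq gene order SOSTDC1, LRRC72, ANKMY2 and BZW2 lie below TSPAN13, and AGR2 and AGR3 follow it. TSPAN13 is on the plus strand and both AGR genes are on the minus strand. Transcription of each AGR gene thus starts at the upper end of the gene as given in RefSeq. Gene extents in hg19 were taken as 7:16793160-16824161 for TSPAN13, 7:16831435-16873057 for AGR2 and 7:16899029-16921613 for AGR3. These extents are approximate, and that of AGR2 spans 41623 bp, against 13189 bp for AGR2 in RefSeq, so that its upper end is not the RefSeq start. Distances are from region midpoints to these ends.

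The RefSeq promoters of the 3 genes are shown because the TSPAN13 start carried one of the highest peaks of the locus at all times, whereas AGR3 had a weak peak at its upper end and the AGR2 regions differed between times. Each runs 5′ to 3′ on the gene's own strand from 250 bases before to 50 bases after the start in RefSeq (GRCh38.p14), at chr7:16753505-16753804 on the plus strand for TSPAN13, chr7:16804950-16805249 on the minus strand for AGR2 and chr7:16881934-16882233 on the minus strand for AGR3. Capitals mark GC boxes (GGGCGG on either strand).
TSPAN13: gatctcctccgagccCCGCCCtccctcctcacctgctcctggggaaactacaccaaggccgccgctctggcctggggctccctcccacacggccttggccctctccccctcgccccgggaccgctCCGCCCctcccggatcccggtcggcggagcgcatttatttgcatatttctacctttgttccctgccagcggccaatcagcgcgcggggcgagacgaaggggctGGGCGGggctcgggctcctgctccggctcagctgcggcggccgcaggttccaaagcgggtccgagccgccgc
AGR2: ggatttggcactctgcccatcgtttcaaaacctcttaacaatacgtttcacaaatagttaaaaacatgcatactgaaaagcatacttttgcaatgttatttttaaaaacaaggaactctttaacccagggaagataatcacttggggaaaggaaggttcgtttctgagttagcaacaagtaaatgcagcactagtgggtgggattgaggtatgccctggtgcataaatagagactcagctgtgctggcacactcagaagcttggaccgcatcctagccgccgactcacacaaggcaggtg
AGR3: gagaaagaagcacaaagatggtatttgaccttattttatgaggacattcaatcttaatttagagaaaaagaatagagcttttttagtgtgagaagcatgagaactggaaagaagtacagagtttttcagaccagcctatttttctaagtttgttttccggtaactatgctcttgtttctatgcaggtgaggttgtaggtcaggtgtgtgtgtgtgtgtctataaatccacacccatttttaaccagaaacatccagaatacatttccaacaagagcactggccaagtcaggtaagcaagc
The TSPAN13 promoter held 71.3% G and C, 30 CpG dinucleotides and 3 GC boxes, a motif found in 45.0% of 35116 promoters of the same length. The AGR2 promoter held 43.7% G and C with 6 CpGs, and the AGR3 promoter 38% with 1 CpG, beside medians over all promoters of 58.7% and 14. For 4 other motifs, both strands were searched as well. Neither forkhead form (TGTTTAC, in 3.42% of all promoters, and TGTTTGC, in 3.89%), nor the AP-1 motif TGANTCA (7.71%), nor the androgen receptor half-site TGTTCT (14.8%) had a match in any of the 3 windows. Other forkhead forms were not searched, so an absence of forkhead sites cannot be read from this.

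Lists held 101755 to 125396 peaks on the autosomes and X, and the depth recovered from them was 10.4 and 8.24 tags per kb (0 h), 8.14 and 8.62 (1 h) and 7.33 and 7.04 (24 h). The 24 h libraries were therefore the shallowest. A peak is called strong here when its −log10 q is at least 10. Over the whole of the autosomes and X the libraries held 64545 and 61233 strong peaks (0 h), 55346 and 59545 (1 h) and 53157 and 53236 (24 h). With 2 libraries per time an exact permutation test of 2 times cannot go below a two-sided p of 0.333. Where a list holds no peak, the signal lay below the authors' calling threshold, and how far below is unknown. Summit pileups are given in multiples of the library's most frequent background, and on this scale the median over regions held by all 6 lists was itself not constant, at 19.8 and 27.3 (0 h), 20 and 21.0 (1 h) and 22.3 and 24.0 (24 h).

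Across the window, strong peaks were fewer at both later times than at 0 h, and the total number of peaks was lowest at 24 h. The 0 h libraries held 44 and 44 strong peaks, the 1 h libraries 24 and 26, and the 24 h libraries 22 and 28. No later library reached the 0 h number. Per 10000 strong peaks of the same library this was 7.0 ± 0.261 at 0 h, 4.35 ± 0.0213 at 1 h and 4.70 ± 0.793 at 24 h (mean ± SD, n = 2 each). Peaks of any strength numbered 72 and 74 (0 h), 61 and 73 (1 h) and 46 and 55 (24 h). They covered 35.1 and 28.7 kb (0 h), 31.7 and 30.5 kb (1 h) and 20.4 and 23.1 kb (24 h), so that coverage at 1 h overlapped that at 0 h and coverage at 24 h lay below both. Depth moved the same way at 24 h, and its part in the lower counts was not tested.

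**Figure D1:**
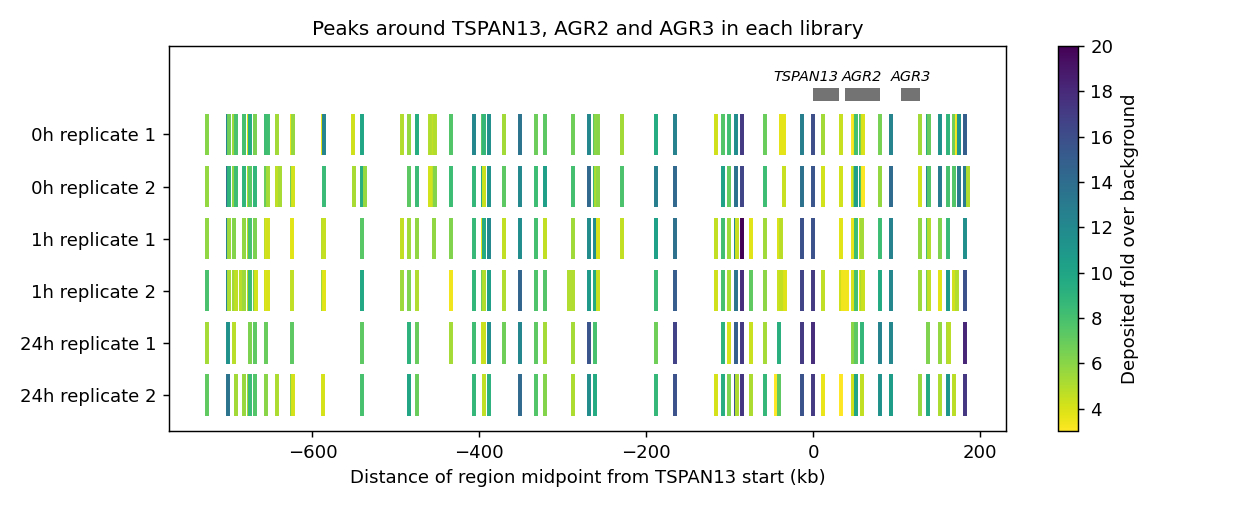
Peaks of the 90 regions in each of the 6 libraries (rows, from 0 h at the top to 24 h at the bottom), placed by distance in kb from the TSPAN13 start and coloured by the deposited fold over background; grey bars are the gene extents. The 24 h rows hold 46 and 55 peaks and the 0 h rows 72 and 74.

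The main difference between 1 h and 0 h was in how many regions passed the −log10 q threshold for strong, with few losing their peak. By fold rank, the 36 regions held by all 6 lists moved in both directions, 8 lower and 8 higher (beside 20.5% and 22.5%). Of 41 regions strong in both 0 h libraries, 20 were no longer strong in both 1 h libraries, which is 48.8% beside 17.6% over all such regions of the genome. The shares set beside each other here were not matched for strength at 0 h. Only 1 of the 41 had no peak at all at 1 h (2.44%, beside 1.51%). Another 17 kept a peak in both 1 h libraries that was not strong in both, and 2 kept a peak in 1 of them. By 24 h, 24 of the 41 were no longer strong in both libraries (58.5%, beside 26.2%) and 6 had no peak (14.6%, beside 4.02%). A further 13 had a peak in both 24 h libraries that was not strong in both, and 5 had a peak in 1 of them. Between 24 h and 1 h, 4 of 22 strong regions were no longer strong in both (18.2%, beside 17.1%), which is close to the genome's share. The 3 comparisons share libraries and are not independent of each other.

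Strength was also read from the rank of −log10 p, which does not depend on the number of strong peaks in a library. Read so, the difference from the rest of the genome was smaller. Of 26 window regions among the 50000 top-ranked peaks of both 0 h libraries, 8 were no longer so at 1 h (30.8%, beside 14.1% outside the window). At 24 h the number was 10 of 26 (38.5%, beside 19.0% outside the window). The strong 0 h regions of the window were less often top-ranked in both 0 h libraries, 26 of 41 against 43233 of 54090 outside it. A region nearer the threshold crosses it more easily, and the part of this in the difference was not tested.

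Counting peaks of any strength, 7 of 65 regions held by both 0 h libraries were lost at 1 h, meaning held by neither 1 h library (10.8%, beside 7.48% genome-wide). At 24 h, 16 of the 65 were lost (24.6%, beside 13.1%), and 9 of 57 regions held by both 1 h libraries had no peak at 24 h (15.8%, beside 6.42%). Leaving out a library loosens this rule, and the number lost at 1 h became 12 with 0 h replicate 1 left out and 13 with 1 h replicate 2 left out. The number lost between 0 and 24 h became 25 without 24 h replicate 2. Between 1 and 24 h it was 19 when 1 h replicate 1 was left out and 15 when 24 h replicate 2 was. For these leave-out counts no share over all regions was computed. Of the 16 regions lost at 24 h, 6 were still present in both 1 h libraries, 5 in 1 and 5 in none. Of the 6 strong ones among them, 5 were present in both 1 h libraries and 1 was in none, whereas outside the window 40.2% of 2171 such regions were present in each 1 h library and 34.6% were absent. Groups defined by presence in the lists differ in strength in part by that choice. Regions lost at 24 h were narrower and weaker at 0 h than those held by all 6 lists. Their median widths were 328 and 266.5 bp in the 2 libraries of 0 h, against 509 and 445.5 bp, and their median folds 5.62 and 5.97, against 9.16 and 9.06. Outside the window the contrast ran the same way, with median widths of 279 and 205 bp, against 528 and 434 bp, and median folds of 4.96 and 5.22, against 8.02 and 8.88.

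New peaks were few. Where a library was left out, no share over all regions was computed. At 1 h, 3 of 57 regions held by both libraries had no 0 h peak (5.26%, beside 3.93%), and the number was 7 when 0 h replicate 1 was left out and 9 when 1 h replicate 1 was. At 24 h, 2 of 38 were new relative to 0 h (5.26%, beside 6.54%), or 4 without 24 h replicate 1, and 0 of 38 relative to 1 h (beside 3.85%), or 3 without 24 h replicate 1 and 1 without 24 h replicate 2. No strong region was new at 1 h relative to 0 h among 22 (beside 0.0338%), although 1 was without 1 h replicate 1. The number of strong regions lost at 1 h was 2 without 0 h replicate 1, 2 without 0 h replicate 2 and 3 without 1 h replicate 2. At 24 h, 1 of 20 strong regions was new relative to 0 h (5%, beside 0.748%). Between 1 and 24 h no strong region of the window was lost (0 of 22, beside 0.0896%) or new (0 of 20, beside 0.151%). A region that became strong in both libraries without having been so before was found once among 22 at 1 h (beside 11.2%), 3 times among 20 at 24 h relative to 0 h (beside 12.8%) and 2 times among 20 at 24 h relative to 1 h (beside 9.12%).

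Of the 90 regions, 36 were held by all 6 lists (40%, beside 43.3% outside the window) and 15 by only 1 list. Among the 36, the percentile of the fold within each library moved in both directions at about the genome's share. At 24 h, 9 regions ranked lower and 9 higher than in both 0 h libraries (beside 22.1% and 25.9%). At 1 h, 8 ranked lower and 8 higher than at 0 h (beside 20.5% and 22.5%), and 6 ranked lower and 11 higher at 24 h than at 1 h (beside 20.9% and 23.0%). Leaving out a library makes non-overlap easier to reach, and these counts moved with it. The matching shares over all regions were not computed. At 1 h against 0 h, 16 were lower and 16 higher when 0 h replicate 1 was left out, and 14 were lower and 13 higher when 1 h replicate 1 was. At 24 h against 0 h, 15 were lower with 0 h replicate 2 or 24 h replicate 2 left out, and 15 were higher with 24 h replicate 1 left out. At 24 h against 1 h, those lower numbered 13 without 1 h replicate 1, 10 without 1 h replicate 2 and 17 without 24 h replicate 2.

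The 2 regions with the highest folds around TSPAN13 were strong in every library, and the one before the gene was higher at both later times. The region at the TSPAN13 start, 7:16792969-16794029, had folds of 16 and 15.5 (0 h), 15.7 and 17.1 (1 h) and 17.9 and 17.1 (24 h). The 24 h folds lay above those of 0 h, and the 1 h folds overlapped those of 0 h. A fold here is the authors' deposited value at the peak's summit. All 6 summits lay 98 to 140 bp past the start, and the folds ranked between percentiles 93.4 and 98.8 of the 72695 regions held by all 6 lists. The region 13.3 kb before the start, 7:16779379-16780426, had folds of 12.7 and 13.7 (0 h), 15.8 and 16.6 (1 h) and 17.2 and 15.7 (24 h). Its summit pileup, a whole number of stacked tags recovered from the deposited fold and −log10 p, was 37.1 and 50.3 times the library's most frequent background (0 h), 60.7 and 63.1 times (1 h) and 80.8 and 81.4 times (24 h). The 3 times did not overlap in pileup (81.1 ± 0.452 at 24 h, against 43.7 ± 9.34 at 0 h, SD, n = 2 each), whereas the folds at 24 h overlapped those at 1 h.

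The strong region that was new at 24 h lay 40.8 kb before the TSPAN13 start, at 7:16751999-16752637. It had no peak in either 0 h library, folds of 3.97 and 4.35 at 1 h, and folds of 9.29 and 7.29 at 24 h. Both 1 h peaks were weak, with −log10 q of 3.65 and 4.47, and both 24 h peaks were strong, with 16.1 and 10.6. The 24 h value of replicate 2 lay just past the threshold of 10. Inside the TSPAN13 extent only 1 other region was found, a weak one 12 kb past the start that was picked out after its values were seen, with folds of 5.35 and 4.18 at 0 h, a peak in 1 h replicate 2 of 4.62 and a peak in 24 h replicate 2 of 3.58.

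**Figure D2:**
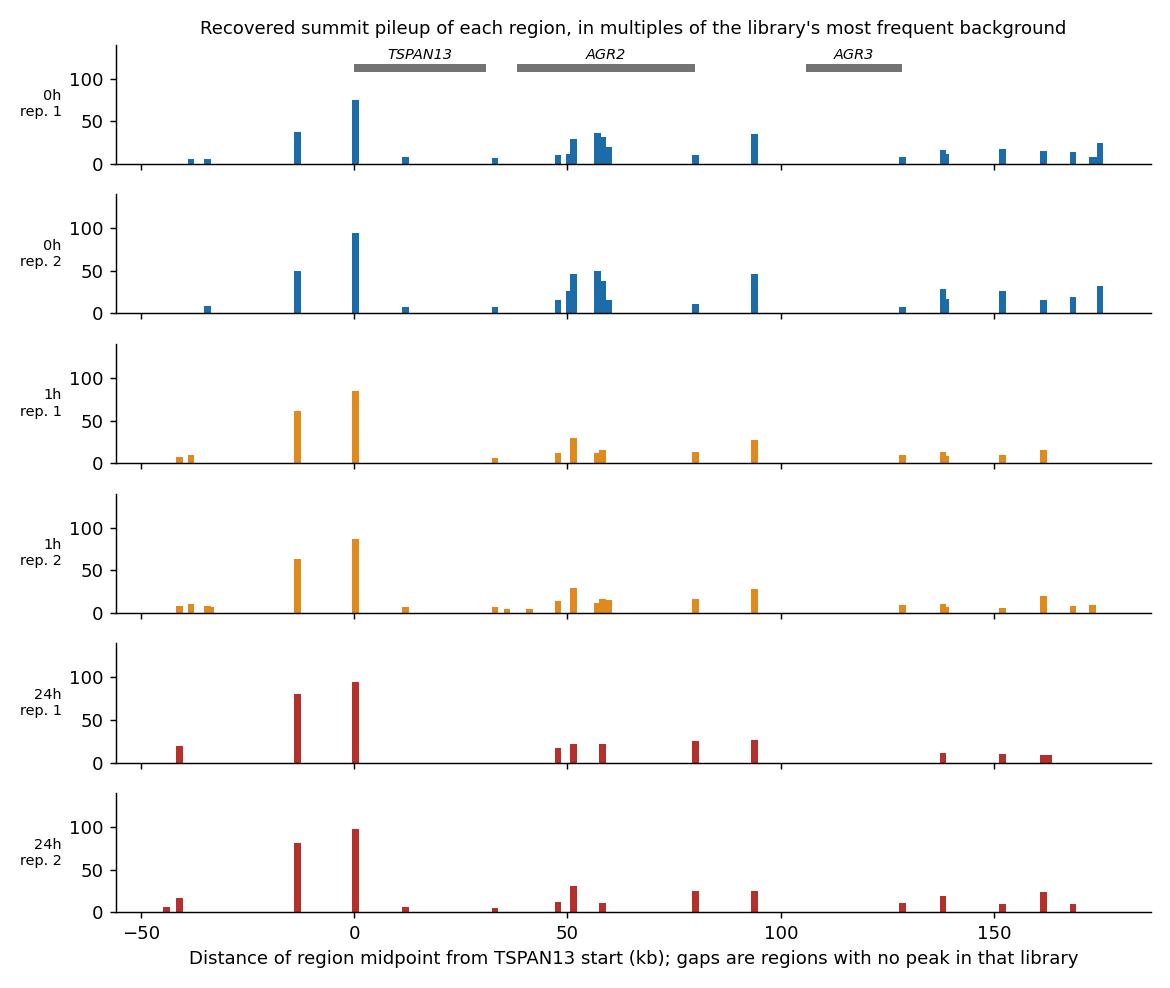
Recovered summit pileup, in multiples of the library's most frequent background, of every region from 50 kb before TSPAN13 to 50 kb past AGR3, in 1 panel per library with 0 h at the top; the x axis is the distance from the TSPAN13 start in kb, grey bars are the gene extents and gaps are regions with no peak. The TSPAN13 start stands between 75.4 and 98.1 in all 6 panels, and the bars around 57 kb, within the AGR2 extent, are tallest at 0 h.

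The AGR2 extent held 8 regions, 4 of them held by all 6 lists. Among the other 4, 3 had peaks in both 0 h libraries and none at 24 h, while the region at the upper end was higher at 24 h. Both 0 h libraries held 7 of the 8, of which 1 was lost at 1 h (14.3%, beside 7.48% genome-wide) and 3 were lost at 24 h (42.9%, beside 13.1%). The strongest of the lost regions, 7:16849764-16850632, lay 22.9 kb below the upper end. It had folds of 7.81 and 10.5 (0 h), 3.97 and 3.64 (1 h), and no peak in either 24 h library. Its recovered pileup, the number of tags stacked at the summit, was 58 and 46 at 0 h and 16 and 16 at 1 h. Both 1 h libraries thus already held a weaker peak there, and the 24 h lists held none. Another lost region, 7:16843622-16843816, was weaker, with folds of 3.40 and 6.32 at 0 h and no peak at any later time; of its 0 h peaks only that of replicate 2 was strong. The last of them, a weak one 20.2 kb below the upper end that was picked out after its values were seen, had folds of 3.97 and 3.11 at 0 h and 4.39 in 1 h replicate 2.

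Next to the lost region, 7:16851085-16851574 kept a peak in every list. Its folds were 6.50 and 7.67 (0 h), 5.28 and 5.08 (1 h) and 8.78 and 4.53 (24 h), with no consistent order. Its pileup was 50 and 35 (0 h), 21 and 23 (1 h) and 23 and 10 (24 h). Scaled to the most frequent background it was 30.9 and 38.3 (0 h), 15.0 and 16.7 (1 h) and 21.4 and 10.4 (24 h), and both later times lay below 0 h. The fold divides by the local background, which was also lower at the later times, at 4.23 and 4.04 times the most frequent background (0 h), 2.26 and 2.70 times (1 h) and 1.61 and 1.49 times (24 h).

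The broad region 7:16844048-16845090 had folds of 8.05 and 10.6 (0 h), 8.36 and 8.0 (1 h) and 7.21 and 10.0 (24 h), and the 3 times overlapped. Its summits lay 51.4 to 51.5 kb past the TSPAN13 start in hg19. Within GRCh38.p14 the RefSeq starts of TSPAN13 and AGR2 are 51.2 kb apart. For AGR3 the distance from the TSPAN13 start is 128.2 kb in GRCh38 and, to its upper end, 128.5 kb in hg19. With spacing so alike, the RefSeq AGR2 start would fall near the summits of this broad region. Regions of the extent above it would then lie before that start. No coordinates were carried between the builds, so whether the broad region covers the start was not determined. The weak region next to the broad one, 7:16840795-16841091, named after its values were seen, was also held by all 6 lists, with folds of 3.00 and 3.97 (0 h), 3.54 and 3.94 (1 h) and 6.02 and 4.24 (24 h).

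At the upper end of the AGR2 extent, 7:16872781-16873597 differed between all 3 times. Its folds were 6.49 and 5.74 (0 h), 8.33 and 9.67 (1 h) and 12.4 and 11.5 (24 h), with no overlap between times. Peaks were not strong at 0 h (−log10 q of 9.5 and 6.20) and strong in both libraries at 1 h and at 24 h. Its percentile among the regions held by all 6 lists was 32.2 and 17.8 (0 h), 56.4 and 66.5 (1 h) and 85.3 and 79.1 (24 h). Scaled pileup was 25.1 and 25.1 at 24 h, against 9.88 and 10.9 at 0 h, while the local background was at most 1.24 times the most frequent one in any library.

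Between AGR2 and AGR3, 13.9 kb past the upper end of AGR2, 7:16886465-16887491 was strong in every library. Its folds were 12.3 and 14.1 (0 h), 12.5 and 12.1 (1 h) and 12.1 and 10.6 (24 h). Its pileup was 56 and 42 (0 h), 38 and 39 (1 h) and 29 and 24 (24 h). In multiples of the most frequent background the pileup was 34.6 and 45.9 (0 h), 27.1 and 28.3 (1 h) and 26.9 and 25.1 (24 h), so that both later times lay below 0 h in pileup. In fold, the 1 h values overlapped those of 0 h and the 24 h values lay below them, one of them by a small margin. Its peaks were 453 and 413 bp wide at 24 h, against 1016 and 669 bp at 0 h.

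**Figure D3:**
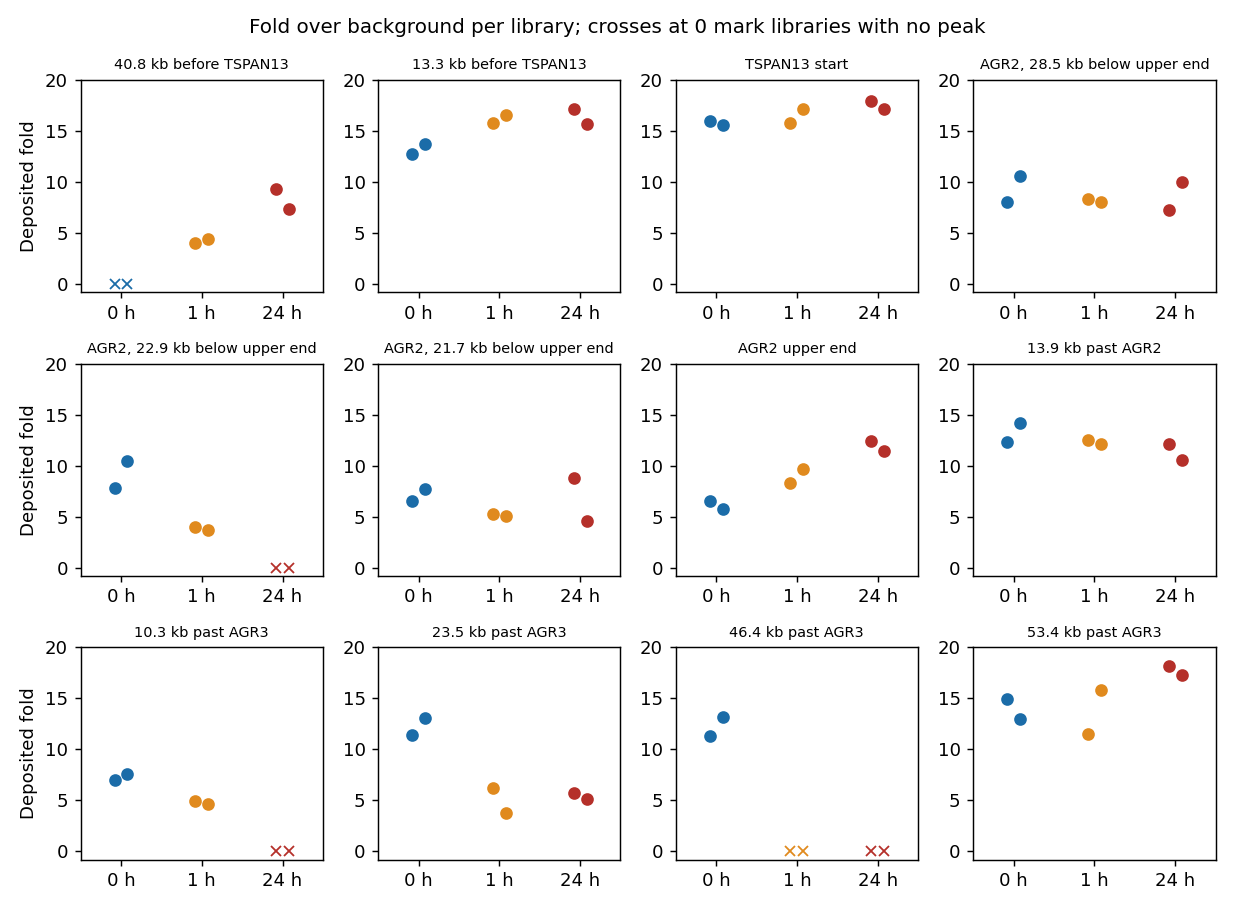
Deposited fold (y axis, linear) in each library at 0, 1 and 24 h (x axis) for 12 regions from 40.8 kb before TSPAN13 to 53.4 kb past AGR3; dots are single libraries and crosses at 0 mark libraries with no peak in the list. The region at the upper end of the AGR2 extent, which is not the RefSeq start, is highest at 24 h (12.4 and 11.5). The region 46.4 kb past AGR3 has peaks at 0 h alone (11.3 and 13.2).

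The AGR3 gene itself held 1 weak region, at its upper end, and the stronger regions of the AGR3 side lay beyond that end. The region at the end, 7:16921542-16921814, weak in every list that held it and named after its values were seen, had folds of 5.35 and 4.18 (0 h), 5.83 and 5.46 (1 h), and 5.62 in 24 h replicate 2, with no peak in 24 h replicate 1. Its pileup was 7 to 13 in the 5 libraries with a peak, too low at this depth to rank the times. Within 50 kb beyond it, 6 regions were strong in both 0 h libraries. Of these, 5 were not strong in both 1 h libraries (beside 17.6% genome-wide) and all 6 were not strong in both 24 h libraries (beside 26.2%). In 24 h replicate 2 alone, 7:16930961-16931388 and 7:16954477-16954822 were still strong, with −log10 q of 15.3 and 19.9.

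The region 46.4 kb past AGR3, 7:16967736-16968210, was the only strong region of the window lost at 1 h. It had folds of 11.3 and 13.2 at 0 h, with pileups of 39 and 29, and no peak in any 1 h or 24 h library. The region 10.3 kb past AGR3, 7:16931563-16932164, had folds of 7.03 and 7.62 (0 h), 4.98 and 4.62 (1 h) and no peak (24 h). Its 0 h peaks lay just past the threshold for strong, with −log10 q of 11.6 and 11.1.

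Another region of this side, 23.5 kb past AGR3 at 7:16944904-16945388, weakened without leaving the lists. Its folds were 11.5 and 13.1 (0 h), 6.25 and 3.78 (1 h) and 5.78 and 5.11 (24 h), and both later times lay below 0 h. Its percentile among the regions held by all 6 lists was 81.3 and 83.3 (0 h), 30.9 and 3.20 (1 h) and 23.3 and 14.7 (24 h). The local background there equalled the most frequent background in every library, so that fold and pileup moved together.

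The remaining regions past AGR3 varied more between replicates. The region 7:16930961-16931388, which lies 9.56 kb past AGR3, had folds of 9.49 and 12.1 (0 h), 7.92 and 6.73 (1 h) and 6.26 and 9.71 (24 h), with the 1 h values below those of 0 h and the 24 h values overlapping them. The region 33.0 kb past AGR3, 7:16954477-16954822, had folds of 8.85 and 7.96 (0 h), 8.56 and 10.8 (1 h) and 5.30 and 11.1 (24 h), so that the 24 h replicates lay on either side of all other libraries. The region 40 kb past AGR3, 7:16961403-16961869, had folds of 6.70 and 7.6 at 0 h and a peak in replicate 2 alone at 1 h (4.23) and at 24 h (4.73).

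Just past this stretch, 53.4 kb from AGR3, 7:16974585-16975534 went the other way. Its folds were 15.0 and 13.0 (0 h), 11.5 and 15.8 (1 h) and 18.2 and 17.3 (24 h), and both 24 h values lay above all other libraries. Its scaled pileup was 52.0 and 58.5 at 24 h, against 30.9 and 35.0 at 0 h.

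The stretch from 50 kb before TSPAN13 to 50 kb past AGR3 (7:16743160-16971613) held 29 of the 90 regions, of which 15 were strong in at least 1 library and have been described. The other 14 had folds between 2.99 and 6.02. Of these, 6 were present in 1 list, and 1, within the AGR2 extent, was held by all 6. Both 0 h libraries held 6 of the 14, both 1 h libraries 4, and both 24 h libraries 1. In the whole stretch, 6 of 20 regions were lost at 24 h (30%, beside 13.1% genome-wide), 3 of 12 strong regions were lost (25%, beside 4.02%), and 8 of 12 were no longer strong in both (66.7%, beside 26.2%). In the rest of the window the shares were 10 of 45 (22.2%), 3 of 29 (10.3%) and 16 of 29 (55.2%). Shares above those of the genome were therefore not confined to the stretch around the genes.

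The 3 strong regions lost at 24 h in the rest of the window lay between 586 and 700 kb before TSPAN13. The region 7:16207194-16207588 had folds of 12.3 and 8.46 (0 h), 4.50 and 3.78 (1 h) and no peak (24 h). The region 7:16139369-16140484 had folds of 8.16 and 5.26 at 0 h and 4.22 and 4.02 at 1 h, and the region 7:16092584-16092967 had folds of 6.76 and 8.92 at 0 h and 5.51 and 5.13 at 1 h. All 3 had weaker peaks in both 1 h libraries and none at 24 h, the same path as the lost strong regions in the AGR2 extent and 10.3 kb past AGR3.

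The 5 regions with the highest 0 h folds outside the stretch were strong in every 24 h library. They include 7:16974585-16975534, described above. The highest, 7:16707489-16708299, 85.3 kb before TSPAN13, had folds of 17.2 and 16.5 (0 h), 20.3 and 17.8 (1 h) and 17.3 and 17.4 (24 h). The region 7:16627225-16628017 averaged a fold of 13.4 at 0 h, 14.4 at 1 h and 16.2 at 24 h. The region 7:16524162-16524854 averaged 13.2 at 0 h, 11.3 at 1 h and 13.7 at 24 h. The region 7:16091348-16091874, which lies within 2 kb of the lost region 7:16092584-16092967, averaged 13.0 at 0 h, 12.2 at 1 h and 12.5 at 24 h.

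Besides the region 40.8 kb before TSPAN13 and the AGR2 upper end, 1 more region became strong in both libraries at 24 h without having been so at 0 h, and it is named here after its values were seen. This region, 7:16308493-16308947, lies 484 kb before TSPAN13. It had folds of 5.73 and 7.31 (0 h), 5.42 and 6.31 (1 h) and 9.07 and 9.99 (24 h), and both 24 h values lay above all others.

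The local background, which MACS2 takes from the reads around a peak, took a different course in 3 regions of the AGR2 extent than at the TSPAN13 start. Among the 36 regions held by all 6 lists it was lower at 1 h than at 0 h in 16 and higher in 6, beside 14.8% lower and 28.8% higher over all regions held by all 6 lists. At 24 h it was lower than at 0 h in 13 and higher in 7 (beside 21.8% and 23.6%). In the 4 such regions of the AGR2 extent it was lower at 24 h in 3 and higher in 1, with a median ratio of 0.685 to 0 h. At the TSPAN13 start it was 4.14 and 5.02 times the most frequent background (0 h), 4.73 and 4.36 times (1 h) and 4.42 and 4.74 times (24 h), with full overlap. At 7:16779379-16780426 before TSPAN13 it was 2.35 and 2.67 times (0 h), 3.18 and 3.12 times (1 h) and 3.84 and 4.22 times (24 h).

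Regions with a raised background at 0 h were gathered in a few places. In both 0 h libraries it was at least 3 times the most frequent background in 13 regions, a threshold set after the values were seen, and 6 of the 13 lay in the AGR2 extent. Because these 13 were picked for high 0 h values, lower later values are in part fixed by the choice. Neighbouring regions also had similar values, so that counts of regions here are not counts of separate measurements. In 0 h replicate 1 the 6 regions of the AGR2 extent read, in order, 3.09, 3.02, 3.06, 4.05, 4.23 and 4.37 times. At 24 h, 5 of the 13 had no peak, 5 had values under 3 in both libraries, and 3, the TSPAN13 start among them, stayed at or above 3 in both. Outside the AGR2 extent, 4 regions were picked out after their values were seen. The background at 7:16137560-16138148, 655 kb before TSPAN13, was 4.03 and 4.28 times (0 h), 2.21 and 2.31 times (1 h) and 1.21 and 1.38 times (24 h). At 7:16441563-16442442 it was 3.35 and 3.64 times (0 h), 1.90 and 2.07 times (1 h) and 1.58 and 1.75 times (24 h), while the folds there, 12.2 and 14.2 at 24 h, against 13.5 and 12 at 0 h, overlapped. At 7:16460122-16461722, 332 kb before TSPAN13, the background was 4.20 and 4.14 times (0 h), 4.31 and 4.42 times (1 h) and 4.49 and 4.02 times (24 h), and at 7:16684355-16686713 it was 9.03 and 10.2 times (0 h), 9.88 and 9.97 times (1 h) and 9.85 and 9.63 times (24 h). In both of these the 3 times overlapped.

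**Figure D4:**
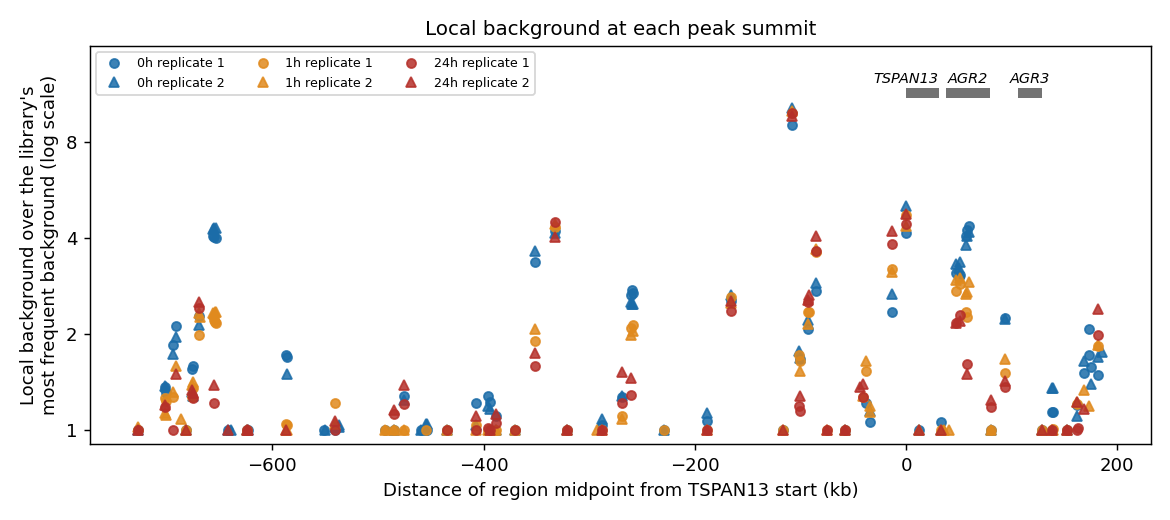
Local background at each peak summit, as a multiple of the library's most frequent background (log y axis), against the distance of the region midpoint from the TSPAN13 start in kb (x axis); colours are times, symbols are replicates and grey bars are the gene extents. Within the AGR2 extent, other than at its upper end, the 0 h symbols lie above the 24 h symbols, and at the TSPAN13 start the 3 times overlap.

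The scaled pileup of the 36 regions gave a related picture. At 1 h it was lower than in both 0 h libraries in 12 and higher in 3, beside 20.4% and 10.9% over all regions held by all 6 lists. At 24 h it was lower than at 0 h in 10 and higher in 8 (beside 15.6% and 22.4%), and relative to 1 h it was lower in 3 and higher in 14 (beside 11.5% and 38.7%).

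Because the window was selected on these lists, its place among other windows is a description. Set beside other 1 Mb windows, the locus was among those with the most strong regions lost at 24 h. Of 2888 windows with a region, 1 had more than the 6 found here, with 9, and 5 had 6. The window was also rich in strong regions, with 41 at 0 h beside a median of 16 in windows that had any. By share, 138 of 2156 windows with at least 10 strong regions at 0 h had lost a higher share than the 14.6% of this window, and their median was 2.56%. None of the 176 windows with at least 41 strong regions, this one included, had a higher share. That cutoff is this window's own count, and the 138 windows with a higher share all held fewer strong regions. For strong regions no longer strong in both libraries, 49 of the 2156 windows had a share above 48.8% at 1 h (median 16.7%), and 56 had one above 58.5% at 24 h (median 25.8%). Counting peaks of any strength, 3 windows had more than 16 lost at 24 h and 2 had as many.

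**Figure D5:**
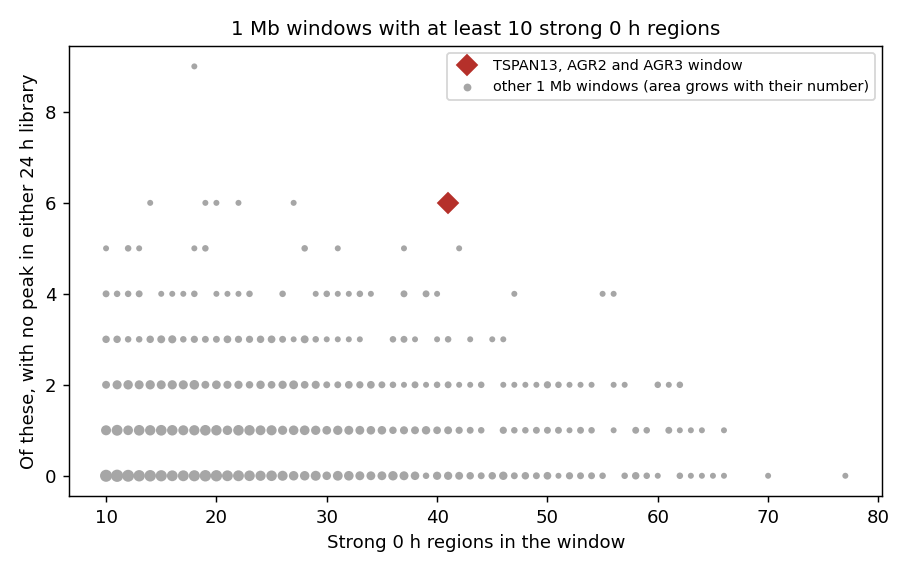
Each 1 Mb window with at least 10 strong regions at 0 h, by their number (x axis) and by how many of them had no peak in either 24 h library (y axis); the red diamond is the TSPAN13, AGR2 and AGR3 window and the area of a grey dot grows with the number of windows it stands for. The window lies at 41 and 6, and the highest count is 9.

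The neighbouring megabases gave different counts, and the difference was not tested. In the 1 Mb above the window 8 of 43 regions (18.6%) and 3 of 24 strong regions (12.5%) were lost at 24 h, and in the 1 Mb below it 2 of 20 (10%) and 0 of 6. The strong share above the window was thus close to the 14.6% within it. At 1 h, 6 of 43 regions (14%) and 2 of 24 strong regions (8.33%) were lost above the window, and 3 of 20 (15%) and 0 of 6 below it, beside 10.8% and 2.44% within the window. The outermost regions inside the window were 7:16065993-16066810, present in all 6 lists with folds between 5.30 and 7.89, and 7:16978930-16979041, present in 0 h replicate 2 alone with a fold of 5.00. The nearest region outside on the lower side, 7:15980293-15980541, lay 19.5 kb away and had folds of 4.58 and 6.27 at 0 h and 4.60 in 24 h replicate 2. The nearest on the upper side, 7:17017974-17018347, lay 18.0 kb away and had folds of 8.38 and 9.06 at 0 h and no peak in any later library.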

How the data were processed

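Reads were processed by the authors with FastQC, fastp, Bowtie2 and MACS2 on build hg19, per the submitters' processing notes; versions, the transposase shift and duplicate handling are not given in the sources used here. Each of the 6 deposited narrowPeak lists covers 1 library, with no pooling. The deposited columns are the fold of summit pileup over local background (a ratio), its −log10 p and −log10 q, and a score that is the whole part of 10 times that −log10 q. Every list ended at a −log10 q of 1.30 to 1.32, a q-value threshold of 0.05.

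Across the 22 autosomes and X, peaks were joined into 1 region where they shared at least 1 bp. A region was lost when both earlier libraries and neither later library held it, and gained in the reverse case. Strong lost needs a −log10 q of at least 10 in both earlier libraries and no peak later. A region with several peaks in a list takes the highest fold. The fold equals (pileup + 1)/(background + 1), so pileup and background were solved from the deposited fold and −log10 p under a Poisson law, and 100% of pileups came out whole within 0.001. Depth in tags per kb is the most frequent background over the shortest peak. The shortest peak was 155 and 111 bp (0 h), 172 and 160 bp (1 h) and 147 and 136 bp (24 h). The part of these lengths in peak widths and scaled pileups was not tested. Rank comparisons call a region lower or higher when both later percentiles lie below or above both earlier ones.

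Regions are named individually where they lie from 50 kb before TSPAN13 to 50 kb past AGR3 and are strong in a library, where they are strong lost or gained, where they are among the 5 highest 0 h folds elsewhere, or where they are nearest to a window edge; other names are marked as chosen after their values were seen. The window, its members and the lists were chosen with earlier results of these data known. The calling rules were tested on simulated lists. Alternatives were stricter presence and strength thresholds, 50% coverage, 500 bp summit windows, lists of one length, ranking by −log10 p and leaving out each library; recovered pileups and the 50000 top-ranked peaks were added after seeing the data. No hg19 genome or annotation was used, and promoters come from RefSeq, matched by symbol for 3 of 3 genes. Python 3.11.15, pandas 2.3.3, NumPy 2.4.6, SciPy 1.17.1 and matplotlib 3.10.9 were used.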

Additional observations from a re-analysis of the deposited data

How the results depend on the processing

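Of 62 values recomputed under alternatives other than leaving out a library, 46 stayed within 1.5 times the reported count and 16 did not. Counting a peak as present from a −log10 q of 5 gave 1 gained region at 24 h against 0 h and 2 at 24 h against 1 h. From 10 it gave 18 lost and 1 gained at 1 h against 0 h, and 0 lost and 2 gained at 24 h against 1 h. With peaks covering 50% of a region, 1 was gained at 24 h against 1 h. Calling strong at 5 gave 3 strong regions lost at 1 h and 11 at 24 h against 0 h, and 3 at 24 h against 1 h. Calling strong at 20 gave 2 strong lost and 0 strong gained at 24 h against 0 h. With recovered pileup in place of the fold rank, 3 regions were higher at 1 h against 0 h and 3 lower at 24 h against 1 h. Among the 50000 top-ranked peaks, 8 regions at 1 h and 10 at 24 h left the strong class. The cause was not tested. Except for the recovered pileup and the 50000 top-ranked peaks, whose shares are given above, these counts have no share over all regions beside them. Whether the window differed from the rest of the genome under those alternatives was therefore not determined.

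Leaving out each library in turn gave lost regions of 9 to 13 (1 h against 0 h), 20 to 25 (24 h against 0 h) and 11 to 19 (24 h against 1 h). In the same order, gained regions were 3 to 9, 2 to 4 and 0 to 3, strong lost 1 to 3, 8 to 9 and 0 to 0, and strong gained 0 to 1, 1 to 1 and 0 to 0. Higher ranks were 11 to 16, 12 to 15 and 13 to 16, and lower ranks 11 to 16, 12 to 15 and 9 to 17. Regions no longer strong in both were 19 to 23 at 1 h and 18 to 27 at 24 h. Leaving out a library makes the rules for lost, gained and ranked regions easier to meet, and leaving out a later library makes the no-longer-strong rule harder to meet. All these counts are of the window alone, and no share over all regions was computed beside them. No paired analysis was possible because the results come from no test.

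The depth of 7.04 to 10.4 tags per kb limits weak peaks most, and an absent peak means only that it missed the authors' threshold. No signal tracks, RNA or FOXA1 binding were analysed here, so nothing can be said of expression.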
